A study of Mus musculus with 12 samples.

Results

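The genes described here are Myc, Mycn, Mycl, Max, Mnt, Mxi1, Mxd1, Mxd3, Mxd4 and Mlx, the core of the Myc, Max and Mxd transcription factor network, in a map of histone H4 acetylated at lysine 8 (H4K8ac) in mouse oligodendrocyte progenitor cells. A gene entered by its symbol: every peak of the 6 H4K8ac lists that the authors assigned to it was taken, and all 10 genes had at least 1 peak, out of 23433 genes named in the lists. The progenitors, the dividing glial cells from which myelin-forming oligodendrocytes arise, were sorted from the forebrain of PdgfrαH2BEGFP mice, whose nuclei carry green fluorescent protein where Pdgfra is active. One group was taken at postnatal day 5 (neonatal, P5) and the other at postnatal day 60 (adult, P60). Each age had 3 biological replicates, every animal carried the reporter, and no treatment is named. Values for 3 libraries are given in the order of replicates 1, 2 and 3. The series also holds 6 input samples, which were not analysed here. The reporter follows Pdgfra, so other Pdgfra-expressing cells can enter the sort, and the labels do not say how many animals made up a replicate.

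Myc, Mycn and Mycl encode basic helix-loop-helix leucine zipper activators that bind DNA only when paired with Max, mostly at the E-box CACGTG, and drive growth and division. Mnt and the Mxd proteins, of which Mxi1 is a member, compete for Max and recruit Sin3 corepressors to the same sites. Mlx is a second partner that pairs with some of the repressors and with the Mondo family. Myc has been linked to the youthful state of progenitors, and Mxd genes to the exit from division. H4K8ac is a mark of active promoters and enhancers, so a peak over a gene shows acetylated chromatin and not the amount of its RNA.

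The promoter sequences of 4 members are shown because they bracket the results that follow: Mxd4 had the largest difference between the ages in the width of its promoter peaks, Mxd3 the smallest, and Mycn and Mxd1 the largest difference in the number of libraries with such a peak. They are RefSeq promoters on build GRCm38.p6, from 250 bases before to 50 bases after the start, at chr5:34187661-34187960 (Mxd4), chr6:86669110-86669409 (Mxd1), chr12:12941787-12942086 (Mycn) and chr13:55329682-55329981 (Mxd3), all on the minus strand and written 5′ to 3′ in the direction of transcription. Capitals mark matches to the motifs searched.
Mxd4: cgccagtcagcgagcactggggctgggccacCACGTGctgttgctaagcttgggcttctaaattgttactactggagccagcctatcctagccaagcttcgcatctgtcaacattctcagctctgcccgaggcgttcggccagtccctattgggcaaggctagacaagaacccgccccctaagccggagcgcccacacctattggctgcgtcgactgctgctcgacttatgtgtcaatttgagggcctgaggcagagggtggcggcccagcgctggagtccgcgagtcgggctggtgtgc
Mxd1: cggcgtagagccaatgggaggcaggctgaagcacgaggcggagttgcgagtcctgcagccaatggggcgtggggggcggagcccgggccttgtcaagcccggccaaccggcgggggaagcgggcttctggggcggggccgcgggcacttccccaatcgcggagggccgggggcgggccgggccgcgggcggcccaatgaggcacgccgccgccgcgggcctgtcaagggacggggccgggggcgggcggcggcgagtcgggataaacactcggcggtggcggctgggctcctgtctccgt
Mycn: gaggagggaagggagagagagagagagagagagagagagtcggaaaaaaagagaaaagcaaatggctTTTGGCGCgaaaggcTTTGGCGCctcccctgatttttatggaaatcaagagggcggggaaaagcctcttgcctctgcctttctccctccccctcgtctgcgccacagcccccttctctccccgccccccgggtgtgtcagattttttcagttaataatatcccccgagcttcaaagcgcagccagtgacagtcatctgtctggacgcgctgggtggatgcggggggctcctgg
Mxd3: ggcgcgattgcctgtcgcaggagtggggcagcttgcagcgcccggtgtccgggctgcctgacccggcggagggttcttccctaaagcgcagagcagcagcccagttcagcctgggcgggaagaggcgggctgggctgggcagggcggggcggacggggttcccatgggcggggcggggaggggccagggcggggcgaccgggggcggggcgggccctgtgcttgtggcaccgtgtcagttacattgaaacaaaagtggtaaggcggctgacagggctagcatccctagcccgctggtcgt

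The motifs below were searched on both strands: the E-box CACGTG, its variant CACGCG, the E2F-type TTTGGCGC and TTTCCCGC, and TATAAA. RefSeq promoters were matched by symbol for 9 of the 10 members, 11 sequences in all because Mxi1 has 3. The member without a match was Myc, so its promoter was not searched. CACGTG lay in the promoters of 4 members, Mxd4 (219 bases before the start), Mnt (123 bases before), Mlx (40 bases before) and Max (3 bases before). Of all 32851 promoters of that length, 7.15% held CACGTG. Mycn carried 2 copies of TTTGGCGC, 183 and 168 bases before its start, a motif held by 0.514% of all promoters. Mycl held CACGCG and TATAAA, 20 and 8 bases before its start, against 9.27% and 13.6% of all promoters. These matches describe letters in a window and show no binding.

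The lists of the 6 libraries differed in length, which bears on every count below. They held 7353 to 31189 peaks in neonatal and 72278 to 77002 in adult libraries, and neonatal replicate 2 held the 31189. Reads per library are not given, so depth is unknown. Promoter peaks, which the authors place within 3000 bp of a transcription start site (TSS), lay on 8, 8 and 7 of 8 progenitor marker genes at P5 and on 7 of 8 in each adult library. Mature oligodendrocyte markers moved with age: 1, 2 and 1 of 8 had a promoter peak in neonatal libraries and 8 of 8 in each adult library. Neuronal markers had 0, 5 and 1 of 8 in neonatal and 5, 3 and 3 in adult libraries, and astrocyte markers 3, 6 and 1 against 5, 3 and 6. Fibroblast markers had 0, 5 and 0 of 8 against 2, 3 and 2, with none on Dcn, Lum or Col3a1. Endothelial markers had 0, 1 and 0 against 1 in each adult library, and microglial markers 0 against 1, with 7 of the 8 microglial genes at 0 in every library. The part of other cells in the differences below was not tested. In such bulk samples, fewer marked cells and less of the mark per cell cannot be told apart.

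Nearly all members had H4K8ac at a promoter in adult progenitors. Promoter peaks lay on 3, 9 and 5 of the 10 members at P5 and on 10, 9 and 9 at P60, or 5.67 ± 3.06 against 9.33 ± 0.577 members (SD, n = 3 each). Of all genes in the lists, 27.2%, 58.5% and 24.0% had a promoter peak in the neonatal libraries and 66.2%, 64.5% and 66.1% in the adult libraries. For the members, neonatal replicate 2 lay within the adult range and the other neonatal libraries below it, whereas over all genes each neonatal library lay below the adult range. Mxd4 alone had a promoter peak in all 6 libraries. Mxd3 had one in adult replicate 1 only. The difference between the ages was 3.67 members, 5.33 without neonatal replicate 2 and 2.33 without neonatal replicate 1.

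No member had promoter peaks throughout the adult libraries and none at P5, a pattern seen in 12.1% of the 18548 genes with a promoter peak anywhere, and none had the reverse, seen in 0.264%. Without neonatal replicate 2, Mycn and Mxd1 took the adult pattern. The share of all genes with that pattern at this setting is not given here, so these 2 cannot be set against it. Members had 0, 1 and 0 peaks outside promoters at P5 and 13, 9 and 13 at P60. These peaks lay on 0, 1 and 0 of the 10 members at P5 and on 3, 4 and 3 at P60. Over all genes the same direction was seen, with such a peak on 3.97%, 21.1% and 2.67% of genes at P5 and 39.2%, 39.1% and 43.2% at P60. Of the adult non-promoter peaks, 23 were intronic peaks of Mxi1. Members took a similar share of each list at both ages, 0.0660%, 0.0994% and 0.0816% of peaks in the neonatal and 0.0789%, 0.0661% and 0.0623% in the adult libraries.

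The bases under peaks in each gene plus 10 kb on each side were compared next. For 9 of the 10 members the lowest adult value exceeded the highest neonatal value, with Mycl the exception; no member showed the reverse, which 0.163% of genes did. Adult libraries were likewise all higher for 72.3% of the 21425 genes with any covered base, so this direction is the common case among all genes. For each of the 9 the exact two-sided permutation p was 0.1, the smallest that 3 against 3 libraries allow, and the adjusted p over all genes was 0.138. The median difference, adult minus neonatal, was 2.25 kb over the members and 1.12 kb over all genes.

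**Figure D1:**
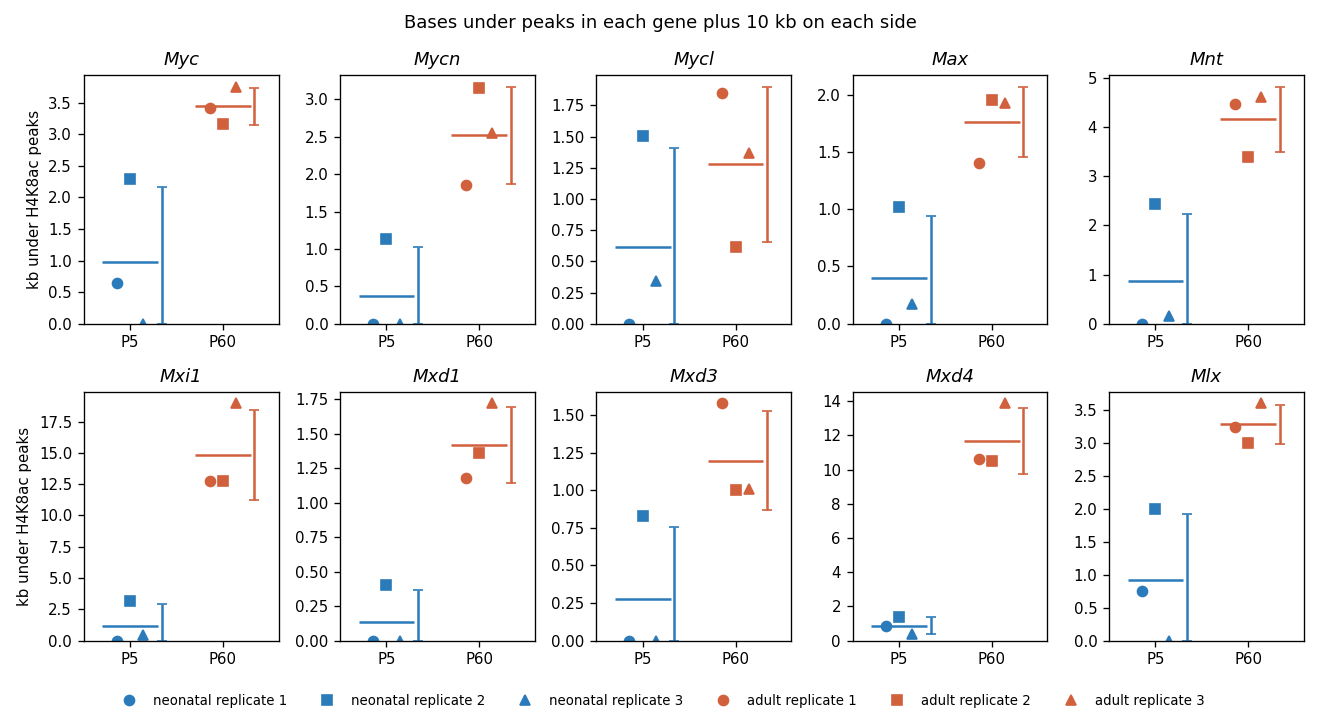
Kilobases under H4K8ac peaks (vertical axes, each from 0) in each gene plus 10 kb on each side, for 3 neonatal (P5, blue) and 3 adult (P60, orange) libraries. Horizontal lines are means, bars are 1 SD (cut at 0), and only in Mycl do the ages overlap, while Mxd4 and Mxi1 show adult means of 11.7 and 14.8 kb.

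Myc (ENSMUSG00000022346.16, chromosome 15, 61985391 to 61990350, plus strand) had H4K8ac at both ages. Peaks covered 0.646, 2.29 and 0 kb at P5 and 3.42, 3.17 and 3.75 kb at P60. Neonatal replicate 3 had no peak there, and the highest neonatal library stayed below the lowest adult library. The means were 0.980 ± 1.18 and 3.45 ± 0.294 kb (SD, n = 3 each), a difference of 2.47 kb (exact permutation p = 0.1).

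All 17 peaks assigned to Myc were promoter peaks, 7 in neonatal and 10 in adult libraries, and they lay just upstream of the gene and over its body. A peak of adult replicate 3 just upstream was assigned to Gm37947. In neonatal replicate 1 the marked stretches upstream were short, from 61984262 to 61984567 and from 61984914 to 61985069. In neonatal replicate 2 a single peak covered 61984178 to 61985282. The widest adult peak, in replicate 1, ran from 61985639 to 61988302, over 2664 bp of the gene body. The maps of peaks around the gene starts show the upstream stretch at both ages and the more continuous cover of the gene body in adult libraries.

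**Figure D2:**
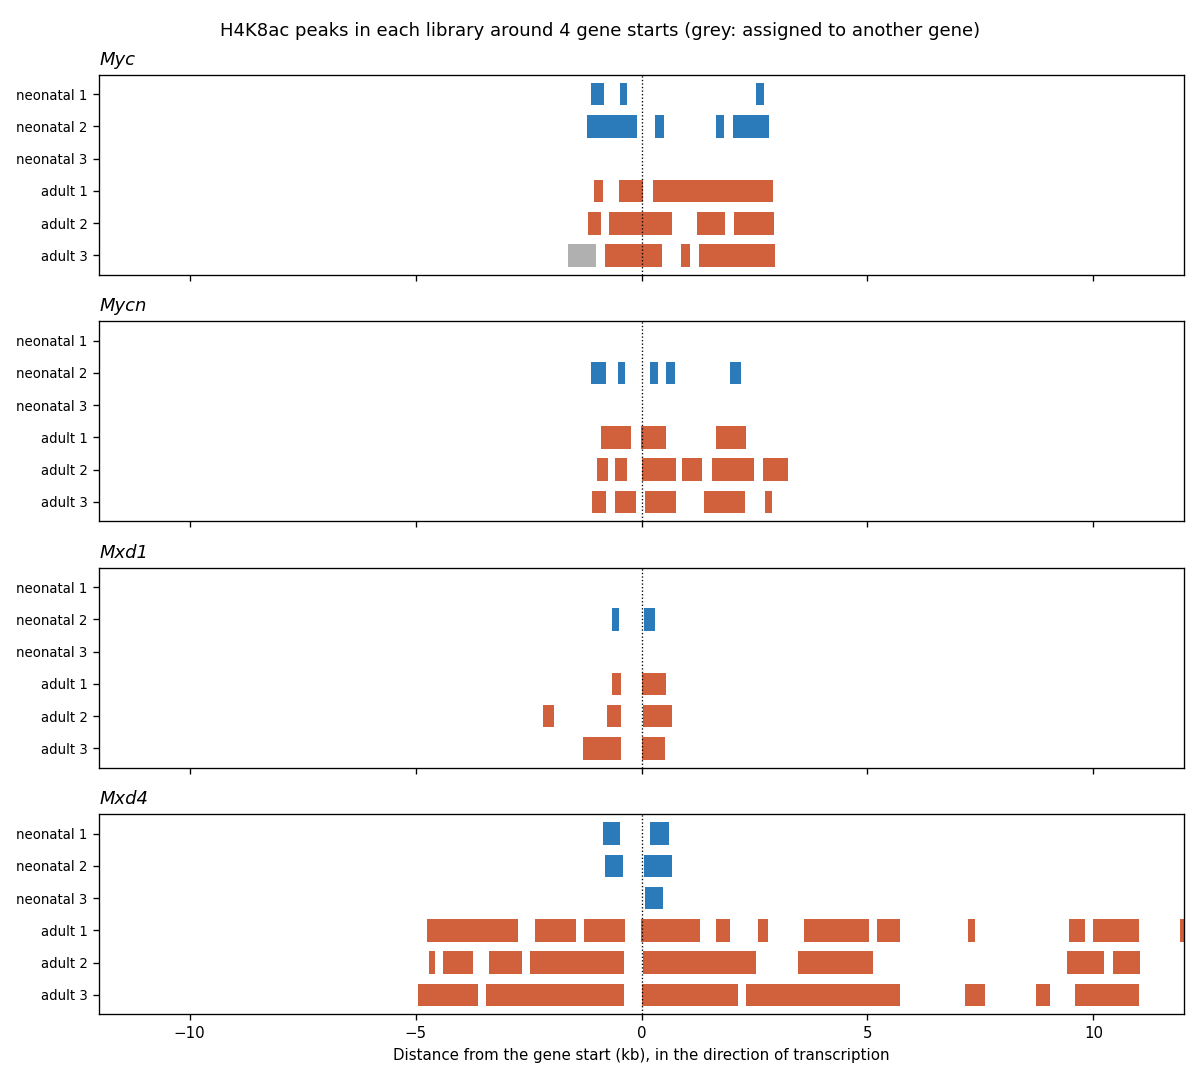
Peaks of each library (rows) around the starts of Myc, Mycn, Mxd1 and Mxd4, by distance in kb along the direction of transcription, with neonatal peaks in blue, adult peaks in orange and peaks assigned to another gene in grey. Mxd4 shows neonatal peaks close to its start and adult peaks spread over several kb on both sides, while Myc and Mycn peaks keep near the start at both ages.

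Mycn, the family member prominent in embryonic neural progenitors (chromosome 12, 12936093 to 12941914, minus strand), had peaks in neonatal replicate 2 alone among the neonatal libraries. They covered 1.13 kb there and 1.85, 3.15 and 2.56 kb at P60. Both other neonatal libraries were at 0, so the neonatal mean of 0.376 ± 0.651 kb rests on a single library, against 2.52 ± 0.651 kb in adults (SD, n = 3 each; exact permutation p = 0.1). All 19 Mycn peaks were promoter peaks. In the printed 300 bases, which hold the 2 TTTGGCGC copies, peaks covered 0 bp in each neonatal library and 130, 126 and 111 bp at P60.

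Mycl, the third Myc gene (chromosome 4, 122995652 to 123002485, plus strand), was the member whose ages overlapped. Covered bases were 0, 1.51 and 0.344 kb at P5 and 1.85, 0.612 and 1.37 kb at P60. The difference of 0.659 kb was smaller than the SD of the neonatal libraries, 0.790 kb (exact permutation p = 0.3, adjusted p over all genes = 0.376, n = 3 and 3). Inside the gene, between 123000310 and 123000888, each adult library had a further promoter-class peak and no neonatal library had one. With 50 kb on each side, which takes in other genes, the difference was 7.38 kb and the ages no longer overlapped (exact permutation p = 0.1, n = 3 and 3).

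Max, the shared partner (chromosome 12, 76937269 to 76962201, minus strand), had covered bases of 0, 1.02 and 0.168 kb at P5 and 1.41, 1.96 and 1.92 kb at P60, and the ages did not overlap. Peaks flanked the start on both sides, and the 300 bases around it, which hold the E-box at 3 bases before the start, were covered over 0 bp in every library except adult replicate 2, with 8 bp. Mlx, the parallel partner (chromosome 11, 101087277 to 101092207, plus strand), had 0.751, 2.00 and 0 kb at P5 and 3.24, 3.00 and 3.60 kb at P60. Coasy ends within 3000 bp of the Mlx start, and part of these bases came from peaks assigned to neighbouring genes. Over the Mlx gene alone, without the 10 kb on each side, the difference went from 2.37 to 0.205 kb and the ages overlapped (exact permutation p = 0.2, n = 3 and 3). Mlx promoter peaks alone came to 309, 659 and 0 bp and 1303, 933 and 1321 bp in the same order.

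Among the repressors, Mxd4 (chromosome 5, 34173883 to 34187720, minus strand) had one of the clearest contrasts. Covered bases were 0.823, 1.37 and 0.394 kb at P5 and 10.6, 10.5 and 13.9 kb at P60. The lowest adult library was far above the highest neonatal library, with means of 0.861 ± 0.487 and 11.7 ± 1.93 kb (SD, n = 3 each; exact permutation p = 0.1). In neonatal libraries 5 promoter peaks lay close to the start. In adult libraries there were 21 promoter peaks, 3 exonic peaks and 3 distal intergenic peaks upstream. Over the gene alone the difference was 5.79 kb in place of 10.8 kb, still without overlap.

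Mxi1, a long gene with internal start sites (chromosome 19, 53310518 to 53375810, plus strand), had covered bases of 0, 3.16 and 0.426 kb at P5 and 12.8, 12.7 and 19.0 kb at P60. Again no neonatal library reached an adult library (1.19 ± 1.71 and 14.8 ± 3.59 kb, SD, n = 3 each; exact permutation p = 0.1). In adult libraries a single peak of 3487, 3456 and 3920 bp covered the region after the upstream start, where neonatal replicate 2 had 4 separate peaks and neonatal replicate 3 had 2. The lncRNA gene Gm30541 overlaps this region, and peaks there cannot be told apart from those of Mxi1. Intronic peaks of the adult libraries clustered between 53358331 and 53366661, and a single peak of neonatal replicate 2, from 53359597 to 53360386, fell among them.

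Mxd1 (chromosome 6, 86647042 to 86669161, minus strand) was marked over a short stretch. Covered bases were 0, 0.404 and 0 kb at P5 and 1.18, 1.36 and 1.72 kb at P60, and the ages did not overlap. Over the gene alone the difference was 0.485 kb in place of 1.29 kb, still without overlap. Mnt (chromosome 11, 74830920 to 74845725, plus strand), a widely expressed antagonist, had 0, 2.44 and 0.165 kb at P5 and 4.47, 3.40 and 4.60 kb at P60. Its ages did not overlap either, and neonatal replicate 2 stood well above the other neonatal libraries. Mxd3 (chromosome 13, 55325487 to 55329823, minus strand), associated with dividing progenitors, carried 2 peaks of its own, both in adult replicate 1 and together 626 bp. The other bases counted for it lay under peaks assigned to neighbouring genes. They came to 0.830 kb in neonatal replicate 2 and to 1.00 and 1.01 kb in adult replicates 2 and 3. In adult replicate 1 they were the part of 1.58 kb beyond the 626 bp. Without the 10 kb on each side, the Mxd3 difference went from 0.921 to 0.158 kb (exact permutation p = 1, n = 3 and 3).

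The width of promoter peaks separated the ages for 8 of the 10 members, all but Mycl and Mxd3, against 60.1% of 18548 genes; none had the reverse, a pattern of 0.399%. Mean summed widths went from 0.740 ± 0.313 to 9.19 ± 0.813 kb for Mxd4, from 0.877 ± 1.17 to 8.10 ± 2.70 kb for Mxi1, from 0.867 ± 1.36 to 4.01 ± 0.768 kb for Mnt and from 0.980 ± 1.18 to 3.24 ± 0.15 kb for Myc (SD, n = 3 each). For Mycn they were 0.376 ± 0.651 and 2.52 ± 0.651 kb and for Mxd1 0.135 ± 0.233 and 1.11 ± 0.313 kb (SD, n = 3 each).

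Because the lists differ in length, the members were also compared among the 7353 strongest peaks of each library, the length of the shortest list, by the authors' q-value. Members with a promoter peak then numbered 2, 4 and 5 at P5 and 4, 4 and 4 at P60, and the difference was 0.333 members. Of all genes, 24.9% ± 1.88 had such a peak at P5 and 24.3% ± 1.46 at P60 (SD, n = 3 each). Which genes made up the count differed between the ages. In each adult library they were Mxi1, Mxd1, Mxd4 and Mlx. Of the 9904 genes with such a peak in any library, 40.9% had one in all 3 adult libraries. Across neonatal libraries Mnt, Mxi1, Mxd4 and Mlx were present in 2 each, and Myc, Mycl and Max in 1 each.

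Mxd1 was the only member with such a peak in 3 adult and 0 neonatal libraries, a pattern of 4.11% of 9904 genes, and no member had the reverse (4.59%). The 3 members whose covered bases stayed higher in every adult library at equal list length were Mxi1, Mxd1 and Mxd4, against 41.4% of 13403 genes. The ages overlapped for the other repressor genes, Mnt and Mxd3. For no member was every neonatal library higher (4.38%). Myc, Mycl, Max and Mnt had no adult peak left at this length, and their differences turned to -0.113, -0.115, -0.0560 and -0.436 kb, with p = 1, 1, 1 and 0.4 by the exact permutation test (n = 3 and 3). Mycn had none at either age. Peaks close to the limit decide some of these counts. Just inside were Mnt in neonatal replicate 3 (rank 6266), Myc in neonatal replicate 1 (rank 6246) and Mxi1 in neonatal replicate 2 (rank 5900). Just outside were Mxd4 in neonatal replicate 1 (rank 7496) and Max, Myc and Mycl in neonatal replicate 2 (ranks 7575, 7867 and 8104).

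Longer lists were compared after the data were seen, leaving out the shortest neonatal lists. Among the 9097 strongest peaks and without neonatal replicate 3, Myc had a promoter peak in both neonatal libraries and in none of the 3 adult libraries. Its covered bases were then 0.646 and 1.10 kb against 0, the reverse of the pattern with all peaks, which 6.57% of genes shared. Mxi1, Mxd1 and Mxd4 were again higher in each adult library than in both neonatal libraries, as were 46.7% of genes. Among the 31189 strongest peaks, with neonatal replicate 2 as the only neonatal library, Mxd4 had 1.37 kb in it and 9.56, 10.4 and 12.8 kb at P60. Myc had 2.29 kb in it and 3.21, 0.609 and 2.95 kb in the adult libraries, which overlapped. Mycn had 1.13 kb against 1.85, 2.23 and 2.08 kb, and Mycl 1.51 kb against 1.39, 0 and 0 kb. In all, 7 members were then higher in each adult library (61.3% of genes), and Mycl alone was lower in each (18.2% of genes).

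The strongest promoter peak of each gene was placed within its own list by the authors' q-value, then fold. That of Mxd4 ranked 149 and 136 in adult replicates 2 and 3, among the 0.205% and 0.177% strongest of those lists, and 1826 in adult replicate 1. In neonatal libraries it ranked 7496, 3637 and 1474. Mxd1 ranked 1530, 3810 and 2784 at P60 and 24744 in neonatal replicate 2, the sole neonatal library with a peak. Myc ranked 6246 and 7867 in the first 2 neonatal libraries and 10206, 18648 and 19531 at P60. Mlx ranked 1711 and 5096 in the first 2 neonatal libraries, had no promoter peak in neonatal replicate 3, and ranked 4086, 5084 and 3010 at P60. Ranks in lists of unequal length are places in each list and not a measure of change.

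**Figure D3:**
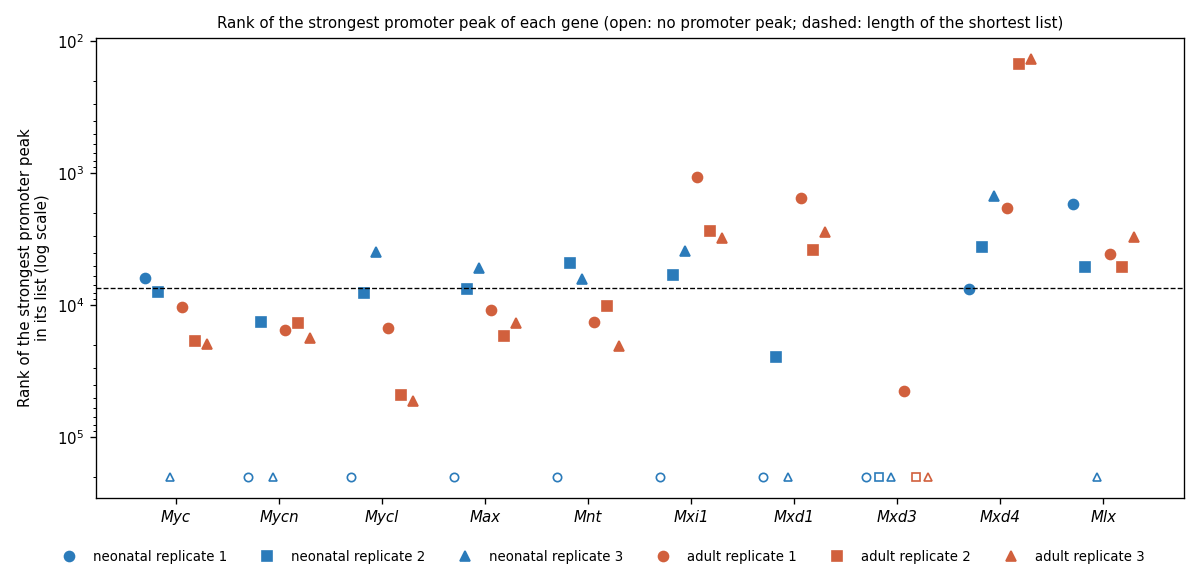
Rank of the strongest promoter peak of each gene in its own list (vertical axis, log scale, strongest at the top) for 6 libraries, with open symbols at the bottom for libraries without a promoter peak and a dashed line at rank 7353. All 3 adult symbols of Mxi1, Mxd1, Mxd4 and Mlx lie above the line, and those of Myc, Mycn, Mycl, Max and Mnt lie below it.

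In the authors' deposited table of differential sites, 32 sites were assigned to 9 of the members and all 32 were higher in adult cells. Of the 54838 sites tested for that table, 79.6% were listed as higher in adult and 0.463% as higher in neonatal cells, so a positive sign is the general case. In the authors' deposited table the 32 sites had a median log2 fold change of 2.10, against 2.41 over all 43888 listed sites. Mxi1 had 12 sites, Mycn, Mnt and Mxd4 had 4 each, Max had 3, Mxd1 had 2 and Myc, Mycl and Mlx had 1 each. Mxd3 had none.

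**Figure D4:**
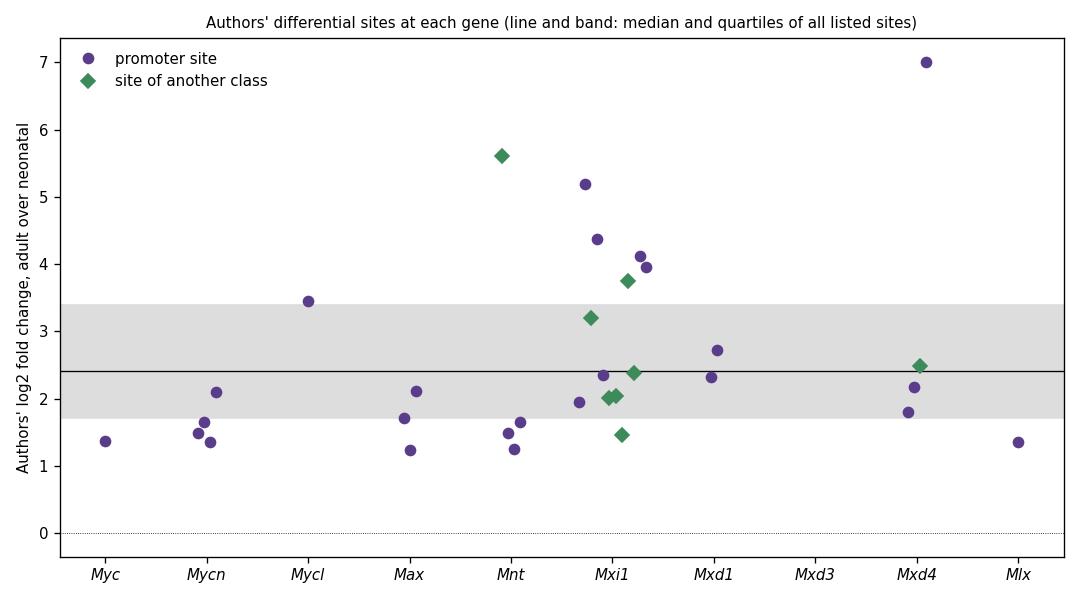
The authors' log2 fold change, adult over neonatal, of each listed site (points, by gene; circles are promoter sites and diamonds are other classes), with the median of 2.41 and the quartiles of all listed sites as a line and a band. Every Myc, Mlx and Mxd1 site is at or below 2.73, and a Mxd4 promoter site stands at 7.01.

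At the gene starts the members spread across the range of other genes. For 8 members the authors' deposited table holds a promoter site within 1000 bp of the gene start, median 1.57 on the log2 scale, against 1.58 over 10079 genes (quartiles 1.33 and 1.96). The order in the authors' deposited table ran from Max (1.24, adjusted p = 0.0184), Mlx (1.35, adjusted p = 0.00288), Myc (1.37, adjusted p = 0.0160) and Mnt (1.49, adjusted p = 0.00194) to Mycn (1.65, adjusted p = 0.00143), Mxi1 (1.95, adjusted p = 0.000192), Mxd4 (2.16, adjusted p = 6.16e-07) and Mxd1 (2.73, adjusted p = 5.03e-09). Max, Mlx, Myc and Mnt lay at the 16.5, 26.7, 29.5 and 41.3 percentiles of these sites in the authors' deposited table, and Mxi1, Mxd4 and Mxd1 at the 74.8, 82.9 and 92.0 percentiles. The authors' deposited table gives no spread between libraries, so neighbours in this order cannot be separated. Where a member had several promoter sites within 1000 bp of its start, the value is of the nearest. Max had a further site there at 1.71 (adjusted p = 0.00546 in the authors' deposited table), so its place as lowest depends on the site used. The further sites of Mxd4, Mycn and Mxd1 had 1.80, 1.48 and 2.32 in the authors' deposited table. By another measure, the promoter site of smallest p-value per gene, 9 members had a median of 2.11 in the authors' deposited table. That over 12058 genes was 1.77.

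The only Myc site in the authors' deposited table lies inside the gene, at 61985871 to 61986270, and overlapped peaks of 1 neonatal and 3 adult libraries. No site over the upstream Myc peaks is listed. The largest member value in the authors' deposited table, 7.01 on the log2 scale, was at an internal Mxd4 promoter site (chromosome 5, 34177028 to 34177427, adjusted p = 4.64e-09), where 3 adult and 0 neonatal libraries had a peak. A site upstream of Mnt, in the 3′ untranslated region of a neighbouring gene, followed at 5.60 (chromosome 11, 74821115 to 74821514, adjusted p = 4.62e-06 in the authors' deposited table). Mxi1 sites ranged from 1.45, in the intron, to 5.19, at 53314382 to 53314781 inside the gene, in the authors' deposited table. The internal Mycl site at 123000406 to 123000805 had 3.46 (adjusted p = 5.52e-05 in the authors' deposited table), and Mycl had no site at its start.

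Averaged over the 11 member promoters, the 300 bases around the start were less often under a peak than the stretch after it. Mxi1 enters this average 3 times, with windows that partly overlap, and Myc, without a matched promoter, does not enter it. In adult libraries the 300 bases of the 11 member promoters were covered over 38.8% ± 12.5, the stretch from 50 to 1000 bp after the start over 71.3% ± 2.30, and the stretch from 1000 to 250 bp before it over 42.8% ± 6.81 (SD, n = 3 libraries). Over 13466 promoters with a peak within 1000 bp in every adult library, the same stretches were covered over 62.2%, 59.0% and 45.5%; the member promoters were not chosen for such a peak. For Mxd4 in adult libraries they were 16.6%, 100% and 81.1%, and for Mxd1 14.1%, 55.6% and 47.6%. In neonatal libraries the 300 bases of Mxd4, Mxd1, Mycn, Max and Mxd3 had no covered base, and those of Mycl were wholly covered in neonatal replicate 2. In adult libraries the 300 bases were covered less than the stretch after the start in Mxd4, Mxd1, Mycn, Max, Mnt and Mxd3, the last marked in adult replicate 1 only. In Mlx and Mycl they were covered more, at 67.8% against 44.0% and 79.0% against 69.5%. The Mxi1 promoters differed: that from 53329445 had 94.2% against 76.1%. Those from 53310256 and 53329163 had 42.9% against 100% and 11.1% against 97.1%.

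By the place of the strongest promoter peak in each of the 6 lists (a percentile, with 0 for no peak), the genes most like Myc were Mif4gd, Zfp207 and Cntn1, at distances of 4.64, 6.82 and 7.37 percentile points. Those most like Mycn were Arl6ip1, Lztfl1 and Ints11, at 2.55, 3.34 and 4.88. The likeness covers 6 libraries that share their peak calling and list lengths.

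Cofactors, partners and turnover factors of the network, 24 genes such as Sin3a, Trrap, Mga and Fbxw7, had promoter peaks on 11, 21 and 13 genes at P5 and 23, 22 and 22 at P60. Covered bases were higher in all adult than in all neonatal libraries for 20 of the 24, beside the 72.3% of all genes. Skp2, a ubiquitin ligase subunit that acts on Myc, and Ruvbl2 had assigned promoter peaks in 3 adult and 0 neonatal libraries, but each had a peak within 3000 bp of a TSS in 1 neonatal library. These are 2 of 24 genes, beside 12.1% of all genes with that pattern. Ncor1, a corepressor gene, had the reverse by assignment, as did 0.264% of all genes, and a peak within 3000 bp of a TSS in all 6 libraries. In the authors' deposited table, 21 of these genes had a promoter site. By the promoter site of smallest p-value per gene, all were higher in adult cells, and their median was 1.55 on the log2 scale. Over all 12058 genes with a promoter site in the authors' deposited table, 11932 were higher in adult cells and the median was 1.77. The cofactor list ran from Hdac2 at 0.96 (adjusted p = 0.0265) to Gsk3b at 3.27 (adjusted p = 0.000261) in the authors' deposited table. Both genes had an assigned promoter peak in every library of both ages.

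Known Myc target genes, 24 in the list, had promoter peaks on 9, 21 and 7 genes at P5 and 23, 23 and 24 at P60. Covered bases were higher in every adult library for 16 of the 24, beside 72.3% of all genes. For Ccnd2, a cyclin of the G1 phase, they were higher in every neonatal library, which held for 0.163% of all genes. Fbl, E2f1 and Shmt2 had assigned promoter peaks in 3 adult and 0 neonatal libraries, although for Fbl a neonatal library had a peak within 3000 bp of a TSS. These are 3 of 24 genes, beside 12.1% of all genes. In the authors' deposited table, 21 targets had a promoter site. By the promoter site of smallest p-value per gene, 20 had more of the mark in adult cells and 1, Ccnd2, had less. Their median was 1.81 on the log2 scale against 1.77 over 12058 genes. The extremes in the authors' deposited table were Srm, a polyamine synthesis enzyme, at 6.30 (adjusted p = 9.94e-08) and Ccnd2 at -2.60 (adjusted p = 0.000118). Each value is of a single site, and Srm had an assigned promoter peak in every library of both ages. Among the 7353 strongest peaks, targets with a promoter peak numbered 8, 7 and 7 at P5 and 5, 8 and 4 at P60.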

How the data were processed

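H4K8ac ChIP-seq peak lists of 3 neonatal and 3 adult libraries were used, 1 list per library. The submitters' processing notes name Trim Galore, Bowtie2 2.4.5, SAMtools, deepTools, MACS2, DiffBind and ChIPseeker and build GRCm38, and whether input was used in peak calling is not given in the sources used here. Each peak carries, per the file headers, a fold enrichment that is a linear ratio, the −log10 p-value and −log10 q-value, a score (10 times −log10 q, rounded down) and the nearest gene. These rank peaks within a list only. The authors' deposited differential table holds a log2 fold change, p-value and adjusted p-value per site. It names no direction: positive sites overlapped adult peaks in 85.0% to 96.7% and neonatal peaks in 10.3% to 27.8% of cases, so positive was read as higher in adult cells. Its p-values imply 54838 tested sites under a Benjamini-Hochberg adjustment, and sites took the gene of the peak sharing most bases. Normalisation of that table is not given in the sources used here.

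Covered bases were those under peaks between the outermost ends of a gene's transcripts in the lists plus 10 kb on each side. The test between ages was an exact permutation over 20 arrangements, two-sided, with Benjamini-Hochberg adjustment over all genes (Python 3.11.15, numpy 2.4.6, pandas 2.3.3), and the code was tested on simulated data. Coordinates count from 1. The members, gene lists and motifs were chosen with earlier results of these data known. Every member is described. Cofactor and target genes are named where promoter peaks filled one age's libraries and were missing from the other's, or where the authors' log2 fold change was the list's highest or lowest. Alternatives were equal numbers of strongest peaks, a q-value limit of 0.005, promoters by position, flanks of 0 or 50 kb, joined peaks, a log2 scale with 0.1 kb added, pairing by replicate number, and leaving out each library.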

Additional observations from a re-analysis of the deposited data

How the results depend on the processing

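With each list limited to its 7353 strongest peaks, members with a promoter peak differed by 0.333, members with a peak outside promoters by 0.333, and covered bases separated the ages for 3 members in place of 9, as did promoter widths (3 in place of 8). Members with a promoter peak in 3 adult and 0 neonatal libraries became 1. The differences for Myc, Mycl, Max and Mnt turned to -0.113, -0.115, -0.0560 and -0.436 kb, that of the cofactor list went from 7.33 to 1.33 genes and that of the target list from 11 to -1.67 genes. In alternatives chosen after seeing the data, the difference in members with a promoter peak was -1 at 9097 peaks without neonatal replicate 3, where covered bases separated the ages for 3 members, and -0.667 at 31189 peaks without neonatal replicates 1 and 3. With 1 library left out, members with a promoter peak in every adult and no neonatal library numbered 0 to 2, and 2 came from leaving out neonatal replicate 2. The share of all genes at that setting is not given here. Covered bases separated the ages for 7 members with no flank (not Mlx, 0.205 kb, or Mxd3, 0.158 kb) and for 10 with 50 kb on each side, where Mycl, Mxd1, Mxd3 and Mlx differed by 7.38, 3.18, 3.22 and 10.2 kb. Flanks of 50 kb take in other genes. Shares of all genes are not given here for these flanks, or for promoter widths at equal list length. The flanks, a q-value limit of 0.005, joined peaks, position in place of assignment and a log2 scale turned no direction. With peaks within 1000 bp joined, covered bases separated the ages for 8 members in place of 9. The share of all genes with joined peaks is also not given here. With the replicate number as a block, Mycl had an exact sign-flip p of 0.5 and Myc of 0.25, the smallest possible, and 9 members were higher in adult libraries in every pair. Deviations of same-numbered libraries correlated at -0.0805, 0.00486 and 0.101, and not every library correlated best with its own number. With 3 libraries per age and lists of unequal length, these values cannot decide whether the numbers pair the samples. Read depth is unknown, so a missing peak in the short neonatal lists does not show that the mark is absent.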

Other observations

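The genes next to Myc and Mycn were also read. Pvt1, the long noncoding RNA gene downstream of Myc (chromosome 15, 62037986 to 62250975), had peaks over 0.240, 0.674 and 0 kb at P5 and 10.3, 10.1 and 15.0 kb at P60 (gene plus 10 kb on each side), with 0, 1 and 0 peaks outside promoters against 5, 5 and 8. No neonatal library came near an adult library. Its strongest promoter site in the authors' deposited table had a log2 fold change of 3.99 (adjusted p = 2.18e-06), while the only Myc site had 1.37. Ddx1, the protein-coding neighbour of Mycn (chromosome 12, 13216973 to 13249213), had 0.230, 0.829 and 0.153 kb at P5 and 2.78, 2.73 and 3.63 kb at P60, and a log2 fold change of 1.39 (adjusted p = 0.00446) in the authors' deposited table.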
